A study of Rattus norvegicus with 6 samples.

Results

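Nfe2l2, Hmox1, Nqo1, Gclc, Gclm and Sod2, which encode a regulator of the antioxidant response and enzymes or enzyme subunits of oxidant defence, were examined in macrophages sorted from infarcted rat hearts. They were taken by their Ensembl rat identifiers, and all 6 were found among the 33884 genes of the count table. The identifiers are ENSRNOG00000001548 (Nfe2l2), ENSRNOG00000014117 (Hmox1), ENSRNOG00000012772 (Nqo1), ENSRNOG00000006302 (Gclc), ENSRNOG00000013409 (Gclm) and ENSRNOG00000019048 (Sod2). The table carries no gene names, and the names given here came with the identifiers and could not be checked in the RefSeq table used here, which lists none of them. All 6 had enough reads to be tested, as did 12756 genes in total.

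The study asked how loss of Dusp6, a phosphatase of ERK1/2, affects macrophages during the acute inflammation that follows myocardial infarction (MI). RNA-seq was performed on 3 WT and 3 Dusp6-deficient (Dusp6-/-) libraries from male Sprague Dawley rats of matched age, 72 h after permanent ligation of the left anterior descending artery. The mutant allele carries an inserted base in the first exon that brings a premature stop codon, and it is present in every cell of the animal, so the macrophages had also developed in, and been recruited to, a heart that lacks Dusp6. The cells were gated on CD45, a leukocyte surface protein, and on HIS36, an antibody against rat macrophages, and no uninfarcted control is among these libraries. Whether a library pools several rats is not given in the sources used here. The p-values set the difference between genotypes against the spread between libraries, which may not be that between single rats. In bulk RNA, fewer cells of one type and less RNA per cell cannot be told apart.

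The transcription factor NRF2, the product of Nfe2l2, is held in the cytoplasm by KEAP1, which directs it to degradation. Oxidants and electrophiles modify KEAP1, and NRF2 then accumulates, enters the nucleus and binds antioxidant response elements together with small MAF proteins. NRF2 is therefore regulated largely at the level of protein, and the transcripts of its targets are commonly read as a measure of its activity. In macrophages the targets protect the cell from its own respiratory burst and from the haem and debris that it ingests.

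The libraries held 12089585 to 17274938 counts. Expression is given as CPM, the counts of a gene relative to the total of its library after TMM scaling. The first principal component of log2-transformed CPM placed WT libraries at -49.7 to -35.9, Dusp6-deficient replicates 2 and 3 at 65.0 and 53.5, and Dusp6-deficient replicate 1 between the genotypes at 4.48. Each fold change is therefore also given without that library. No 2 libraries of a genotype were alike within counting error, the chi-square statistic per gene being at least 27.6, where a repeat of one library would give about 1. Dusp6 itself and the markers of macrophages, neutrophils and heart cells could not be looked up by name, so neither the genotype nor the purity of the libraries was checked here.

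To show the sequence context of these genes, the RefSeq promoter windows (build GRCr8, 250 bases before to 50 after the transcription start) were searched for the core of the antioxidant response element, TGACNNNGC, and for its reverse complement, GCNNNGTCA. Windows were found for 5 of the 6 genes, all but Hmox1, and 3 of these 5 held the core, against 12.1% of 33469 windows of the same length. The share of G and C bases was 56.3% to 76.7% in these 5, against a median of 51.7% over all windows, and was not matched. Gclm and Gclc are shown because they encode the subunits of a single enzyme and had different patterns, and Sod2 because its libraries were spread the widest. Capitals mark the core. Gclm lies at chr2:213031885-213032184 (plus strand), Gclc at chr8:87510226-87510525 (plus strand) and Sod2 at chr1:50050119-50050418 (minus strand).
Gclm: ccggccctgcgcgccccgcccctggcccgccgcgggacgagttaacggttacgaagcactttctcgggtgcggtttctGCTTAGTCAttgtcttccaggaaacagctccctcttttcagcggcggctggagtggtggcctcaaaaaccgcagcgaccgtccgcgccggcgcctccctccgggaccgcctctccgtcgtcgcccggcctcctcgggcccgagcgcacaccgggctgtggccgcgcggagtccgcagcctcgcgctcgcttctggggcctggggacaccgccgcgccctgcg
Gclc: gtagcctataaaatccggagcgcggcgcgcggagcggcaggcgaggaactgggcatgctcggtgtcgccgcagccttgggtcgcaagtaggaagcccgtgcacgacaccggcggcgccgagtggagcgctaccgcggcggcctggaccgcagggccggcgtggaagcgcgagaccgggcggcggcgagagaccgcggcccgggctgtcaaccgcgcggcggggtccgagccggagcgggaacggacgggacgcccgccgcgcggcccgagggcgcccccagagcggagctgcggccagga
Sod2: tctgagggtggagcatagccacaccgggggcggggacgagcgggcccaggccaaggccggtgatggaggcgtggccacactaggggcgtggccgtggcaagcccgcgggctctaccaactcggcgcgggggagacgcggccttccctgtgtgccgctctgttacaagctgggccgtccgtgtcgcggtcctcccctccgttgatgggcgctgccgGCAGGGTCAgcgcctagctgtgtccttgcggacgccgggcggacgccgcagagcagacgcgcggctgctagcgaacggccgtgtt
In Gclm the core lies on the reverse strand as GCTTAGTCA and begins 172 bases before the start. In Sod2 it reads GCAGGGTCA, also on the reverse strand, 35 bases before the start. The Nfe2l2 window holds TGACGCCGC on the forward strand just after the start, and the windows of Gclc and Nqo1 have no match. A match of letters is a description and shows no binding, and elements outside these windows were not searched.

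None of the 6 genes (0) was called between the genotypes by edgeR's quasi-likelihood test, in which a call required both an absolute log2 fold change above 1 and an adjusted p below 0.05. Over all genes tested, 3.47% were called higher in Dusp6-deficient macrophages and 2.16% lower. With no requirement on fold change the count for these genes was again 0, where 5.55% of all genes were higher and 2.67% lower. The share of higher genes among all called was 61.6% with TMM and 50.2% with upper-quartile scaling. At an unadjusted p under 0.05 stood 2 of the 6 genes, Gclm and Sod2, both with lower means in Dusp6-deficient macrophages, against 30.6% of all genes tested. DESeq2's Wald test also called 0 of the 6, where it called 6.92% of the 18770 genes with any count. That total includes genes that the edgeR filter left out, so this share and those of edgeR are over different sets. Of the 6 log2 fold changes, 3 were below 0, where 48.6% of all genes tested were below 0. The median of the 6 was -0.079 against 0.024 over all genes tested.

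**Figure D1:**
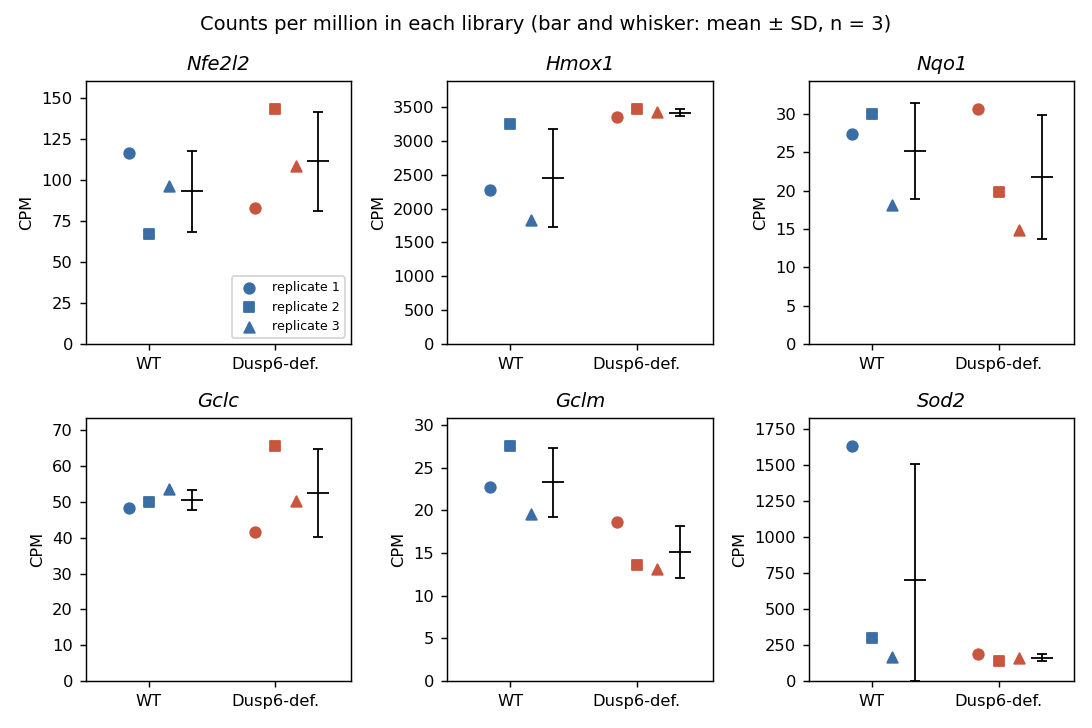
CPM of the 6 genes (y axes from 0) in 3 WT (blue) and 3 Dusp6-deficient (red) libraries, with a marker shape for each replicate number and the mean ± SD beside each group; the lower whisker of Sod2 in WT stops at 0. The Gclm libraries of the genotypes are apart, Hmox1 is level across the Dusp6-deficient libraries, and 1 WT library sets the Sod2 mean.

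The regulator, Nfe2l2, had 116, 67.0 and 96.3 CPM in WT replicates 1, 2 and 3 and 82.8, 143 and 108 CPM in Dusp6-deficient replicates 1, 2 and 3. The lowest library was WT and the highest was Dusp6-deficient, and the remaining 4 were interleaved. The means were 93.2 ± 24.7 CPM (SD, n = 3) and 111 ± 30.2 CPM (SD, n = 3), a fold of 1.20 with a 95% interval of 0.782 to 1.83 (edgeR adjusted p = 0.544). The interval leaves room for a change of up to 1.83-fold upward or to 0.782 of the WT level. Without Dusp6-deficient replicate 1 the log2 fold change was 0.38 (edgeR adjusted p = 0.284), compared with 0.26 with all libraries, and without Dusp6-deficient replicate 2 it was 0.023.

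Hmox1 encodes haem oxygenase 1, which breaks haem down to biliverdin, carbon monoxide and iron, and is a target of NRF2. It took between 0.208% and 0.341% of all counted reads in each library. The WT libraries had 2270, 3240 and 1835 CPM and the Dusp6-deficient libraries 3354, 3464 and 3420 CPM. The lowest Dusp6-deficient library was above the highest WT library, by a small margin over WT replicate 2, while WT replicates 1 and 3 were well below. Such a separation in the upward direction was seen in 17.8% of all genes tested. The means were 2449 ± 719 CPM (SD, n = 3) and 3413 ± 55.5 CPM (SD, n = 3), a fold of 1.39 with a 95% interval of 0.953 to 2.04 (edgeR adjusted p = 0.212).

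The separation of Hmox1 depended on how library sizes were scaled. It was present with TMM and RLE scaling and absent with upper-quartile scaling and with unscaled totals, where WT replicate 2 held 3410 CPM and the Dusp6-deficient libraries 3392, 3028 and 3028. The spread of Hmox1 among Dusp6-deficient libraries also varied with the scaling. Their coefficient of variation was 1.63% with TMM, 0.871% with RLE, 1.80% with upper-quartile scaling and 6.68% with unscaled totals, against 29.4%, 29.7%, 28.8% and 26.0% among WT libraries. On the log2 scale with TMM, 0.408% of genes tested had as small an SD among the Dusp6-deficient libraries, and the SD among WT libraries stood at the 72.3rd percentile. Without Dusp6-deficient replicate 1 the log2 fold change was 0.44 (edgeR adjusted p = 0.211), close to 0.48 with all libraries. It ran from 0.27 without WT replicate 3 to 0.73 without WT replicate 2.

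Nqo1, a quinone reductase that is widely used as a reporter of NRF2 activity, had 27.4, 30.0 and 18.1 CPM in WT and 30.6, 19.8 and 14.8 CPM in Dusp6-deficient libraries. The highest and the lowest library were both Dusp6-deficient, and the genotypes overlapped across nearly the whole range. The means were 25.2 ± 6.22 CPM (SD, n = 3) and 21.7 ± 8.07 CPM (SD, n = 3), a fold of 0.864 with a 95% interval of 0.531 to 1.41 (edgeR adjusted p = 0.674). Dusp6-deficient replicate 1 held the highest level of the 6 libraries. Without it the log2 fold change moved from -0.21 to -0.59 (edgeR adjusted p = 0.130). Leaving out Dusp6-deficient replicate 3 instead gave -0.024 (edgeR adjusted p = 0.974), and these were the extremes of the fits without one library. The counts behind Nqo1 were 185 to 534 per library, and the lowest has a 95% Poisson interval of 159 to 214 counts, which covers counting error only.

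Glutathione, the main soluble thiol antioxidant of the cell, is made from its amino acids by glutamate-cysteine ligase and glutathione synthetase. The ligase is rate-limiting and consists of a catalytic subunit, encoded by Gclc, and a modifier subunit, encoded by Gclm, which raises the activity of the catalytic subunit and relieves its feedback inhibition by glutathione. Both genes are known NRF2 targets.

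Gclc had 48.2, 49.9 and 53.6 CPM in WT and 41.5, 65.6 and 50.3 CPM in Dusp6-deficient libraries. The WT libraries lay close together, inside the range of the Dusp6-deficient ones. The means were 50.6 ± 2.72 CPM (SD, n = 3) and 52.5 ± 12.2 CPM (SD, n = 3), a fold of 1.04 with a 95% interval of 0.745 to 1.44 (edgeR adjusted p = 0.886). Without Dusp6-deficient replicate 1 the log2 fold change was 0.15 (edgeR adjusted p = 0.508). Its sign changed with the processing, from 0.053 with TMM to -0.020 with upper-quartile scaling.

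Gclm had 22.7, 27.6 and 19.5 CPM in WT and 18.6, 13.6 and 13.1 CPM in Dusp6-deficient libraries. All 3 Dusp6-deficient libraries were below all 3 WT libraries, with replicate 1 just under the lowest WT library, and the separation held with TMM, RLE, upper-quartile and no scaling. A separation in the downward direction was seen in 16.3% of all genes tested. The means were 23.3 ± 4.04 CPM (SD, n = 3) and 15.1 ± 3.03 CPM (SD, n = 3), a fold of 0.651 with a 95% interval of 0.446 to 0.950 that is not adjusted for the number of genes tested (adjusted p = 0.126 by edgeR's quasi-likelihood test). The log2 fold change was -0.62 with a standard error of 0.24.

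The adjusted p of Gclm depended on Dusp6-deficient replicate 1. Without that library its log2 fold change was -0.85, a fold of 0.556, and it passed the adjusted p threshold but not the fold change threshold (edgeR adjusted p = 0.0252). That fit placed 13.1% of all genes tested below WT by adjusted p alone, so Gclm was among many. Without one of the other libraries its adjusted p with edgeR was 0.146 to 0.335, and over all 13 alternatives 0.0252 to 0.335. In the fits without one of the other libraries, its log2 fold change stayed between -0.76 and -0.48. With both thresholds those fits called only 7 to 148 genes in total, against 717 with all libraries. The scarcity of low adjusted p there was therefore not particular to Gclm. Its counts were 164 to 477 per library, and the lowest has a 95% Poisson interval of 140 to 191 counts.

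**Figure D2:**
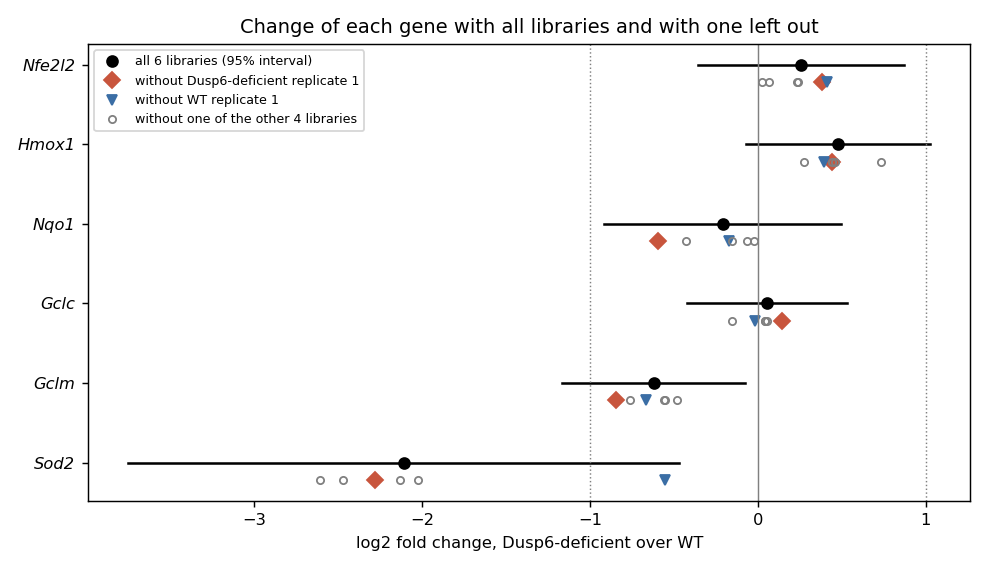
Log2 fold change of Dusp6-deficient over WT (x axis) for each gene, with all 6 libraries (black points, lines are 95% intervals) and with one library left out (red diamonds, blue triangles and open circles); dotted lines mark the fold change threshold. Sod2 moves from -2.11 to -0.55 without WT replicate 1, and Gclm stays below 0 in every fit shown.

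Counts of different genes within a library can be divided by each other with no scaling, and the change of such a ratio between genotypes can be read, though its level depends on gene length. All 15 ratios between the 6 genes were computed and compared by a two-sided exact permutation test of log2 ratios, whose smallest possible p with 3 against 3 libraries is 0.1. The genotypes did not overlap in 3 of the 15, Hmox1 to Gclm, Hmox1 to Nqo1 and Hmox1 to Sod2, each at that smallest p (exact permutation, adjusted p = 0.429 by Benjamini-Hochberg over the 15). Among the ratios of all pairs of genes tested with a count in every library, 31.5% did not overlap between the genotypes, and 3 of 15 is not above that share. For Hmox1, whose 5 ratios include all 3 separated ones, the share against all other genes was 31.8%.

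There were 99.8, 118 and 94.0 Hmox1 counts per Gclm count in WT libraries and 180, 254 and 260 in Dusp6-deficient libraries, a 2.21-fold difference of geometric means. The Hmox1 to Nqo1 ratio was 82.9, 108 and 101 in WT and 110, 175 and 231 in Dusp6-deficient libraries, 1.70-fold apart, with replicate 1 of the Dusp6-deficient libraries next to the highest WT value. The Hmox1 to Gclc ratio overlapped, with 47.1, 64.9 and 34.3 in WT and 80.8, 52.8 and 68.0 in Dusp6-deficient libraries (1.404-fold, exact permutation p = 0.2, adjusted p = 0.429).

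The Hmox1 to Sod2 ratio was 1.39, 10.9 and 10.9 in WT and 17.9, 24.9 and 21.4 in Dusp6-deficient libraries, 3.87-fold apart, with WT replicate 1 far below the rest. Without that library the geometric means were 1.95-fold apart.

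The Gclc to Gclm ratio, which sets the catalytic against the modifier subunit, was 2.12, 1.81 and 2.74 in WT and 2.23, 4.81 and 3.83 in Dusp6-deficient libraries. Replicates 2 and 3 of the Dusp6-deficient macrophages were above every WT library and replicate 1 was inside the WT range. The geometric means were 1.57-fold apart (exact permutation p = 0.2, adjusted p = 0.429 over the 15 ratios).

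**Figure D3:**
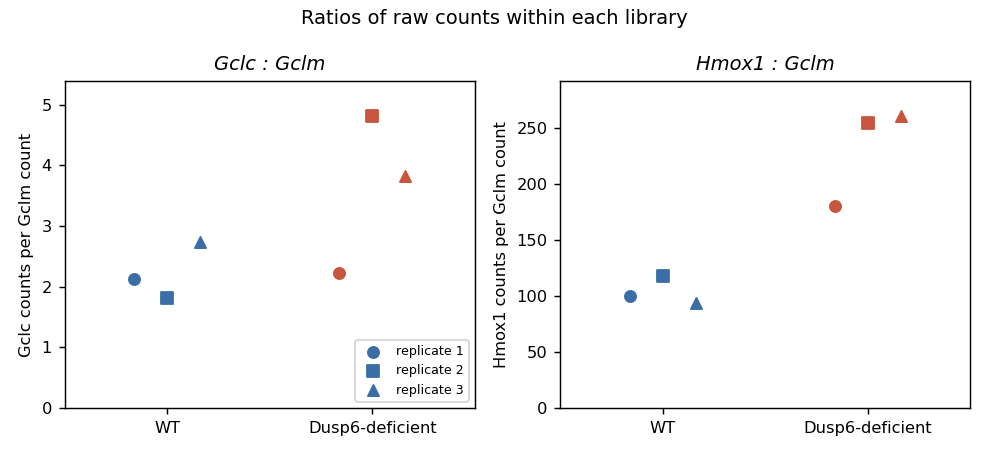
Gclc counts per Gclm count (left) and Hmox1 counts per Gclm count (right), both from 0, in each WT (blue) and Dusp6-deficient (red) library. The left ratio overlaps through Dusp6-deficient replicate 1 at 2.23, and the right ratio does not, with 118 the highest WT value and 180 the lowest Dusp6-deficient value.

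Sod2 encodes the manganese superoxide dismutase of the mitochondrial matrix, which turns superoxide into hydrogen peroxide and is known to be strongly induced by inflammatory signals through NF-kB. It had 1632, 298 and 169 CPM in WT and 188, 139 and 159 CPM in Dusp6-deficient libraries. WT replicate 1 was far above the rest, with 27472 counts, WT replicate 2 was the next, and WT replicate 3 lay within the Dusp6-deficient range. The means were 699 ± 810 CPM (SD, n = 3) and 162 ± 24.6 CPM (SD, n = 3), so that the SD in WT exceeded the mean. The fold was 0.232 with a 95% interval of 0.0743 to 0.723 (adjusted p = 0.0955 by edgeR's quasi-likelihood test). Like that of Gclm, the interval is not adjusted for the number of genes tested.

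This fold rested on 1 library. Without WT replicate 1 the log2 fold change of Sod2 moved from -2.11 to -0.55 (edgeR adjusted p = 0.322), a fold of 0.682. Without Dusp6-deficient replicate 1 it was -2.28 (edgeR adjusted p = 0.113). With no filter on low counts Sod2 passed both thresholds (log2 fold change -2.11, edgeR adjusted p = 0.0441), in a fit that called 2.25% of 18770 genes lower. Over the 13 alternatives its adjusted p ran from 0.0441 to 0.322. WT replicate 3 and Dusp6-deficient replicate 1 changed places with the scaling, at 169 and 188 CPM with TMM and 192 and 190 with unscaled totals.

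WT replicate 1 held Sod2 at 5.48 times the next library, a gap reached by 33 of the 12756 genes tested, and in 23 of these the library standing above the others was the same one. At a gap of at least 3 times the next library, WT replicate 1 stood above the others in 58 genes and each of the remaining libraries in 1 to 19. The SD of log2 CPM of Sod2 among WT libraries, 1.70, was at the 99.1st percentile of all genes tested, and that among Dusp6-deficient libraries, 0.22, at the 24.8th. For the 5 genes other than Sod2, the highest library was 1.01 to 1.23 times the next.

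**Figure D4:**
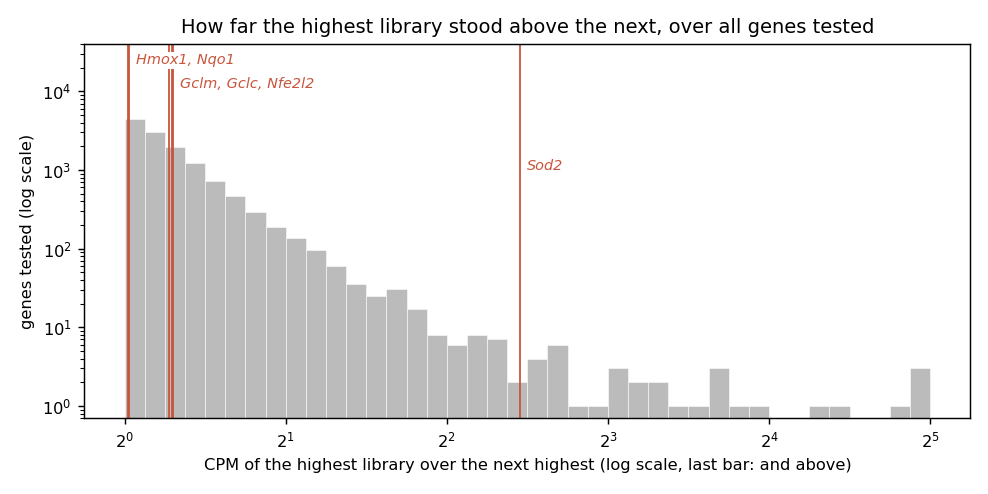
Number of genes tested (y axis, log scale) by the ratio of the CPM of the highest library to the next highest (x axis, log scale), with red lines at the 6 genes; the last bar also holds all higher ratios. Sod2 stands at 5.48, where few genes are, and the others lie between 1.01 and 1.23.

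The genes did not share one pattern over the 6 libraries. Likeness was measured as the root mean square difference between the log2 CPM deviations of 2 genes from their own means, so that 0 is an identical profile, among genes whose log2 CPM averaged 3 or more. Gclm and Nqo1 were 0.27 apart, with 5.995% of the other 8273 genes closer to Nqo1 and 12.1% closer to Gclm. Nfe2l2 and Gclc were also 0.27 apart, with 4.22% of genes closer to Nfe2l2 and 17.04% closer to Gclc. The subunit genes Gclc and Gclm were 0.49 apart, with 67.0% of genes closer to Gclc and 48.7% closer to Gclm. Sod2 was at least 1.05 from each of the others. Its nearest was Gclm, with 12.8% of genes closer to Sod2 and 94.9% closer to Gclm, then Nqo1, with 17.4% and 96.2%. For Nfe2l2, Hmox1 and Gclc, 47.6% to 69.0% of genes were closer to Sod2. These values describe 6 libraries and were not tested.

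The genes with the profiles nearest to Hmox1 were ENSRNOG00000013828 and ENSRNOG00000021104, at 0.046 and 0.081, and the nearest to Sod2 were ENSRNOG00000004226 and ENSRNOG00000009832, at 0.21 and 0.28. The names of these genes are not paired with their identifiers in the sources used here. The nearest to Sod2 had log2 fold changes of -1.95 (edgeR adjusted p = 0.113) and -2.72 (edgeR adjusted p = 0.0639), and neither passed the test. Both were picked for likeness to Sod2 over these same libraries, so values near its own follow from that choice.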

How the data were processed

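R 4.3.3, edgeR 4.0.16 and DESeq2 1.42.0 were used for the tests. Per the labels and the study's methods, the authors trimmed reads with Trim Galore, aligned them to rat rn6 with HISAT2 and deposited raw read counts per gene from featureCounts (1.5.0-p3). The annotation release, strand setting and handling of multi-mapping reads are not given in the sources used here. Columns were matched to samples by their names.

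Genotypes were compared by the quasi-likelihood test of edgeR after filterByExpr and TMM scaling, and p-values were adjusted over every gene tested by the Benjamini-Hochberg method. A gene was called at an adjusted p under 0.05 and an absolute log2 fold change over 1, the study's thresholds. Standard errors were derived from the F statistic. The test was run first on simulated data with 200 changed genes. Their changes were larger than those of the genes here other than Sod2, so that run does not show how well such smaller changes are found.

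The 6 genes, the pathway lists and the rule for named genes were chosen with earlier results of these data known. That rule took the 6 genes, up to 4 genes from each pathway list, and for each of the 6 genes the 2 tested genes with the nearest pattern over the libraries. The identifiers could not be paired with symbols in the table used here, so Dusp6, the pathway lists and the cell type markers were not analysed. Nearest genes are listed by identifier for Hmox1 and Sod2 alone, and those found for the other genes are not listed. CPM with other scalings of the library sizes and the shares of separated count ratios over all pairs of genes were added after seeing the data.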

Additional observations from a re-analysis of the deposited data

How the results depend on the processing

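The alternatives were RLE and upper-quartile normalization, DESeq2's Wald test, 2 other filters on low counts, thinning to the smallest library, the replicate block and 6 fits that each left out one library. Over these 13, Nfe2l2, Hmox1, Nqo1, Gclm and Sod2 kept their direction. Gclc, at 0.053 on the log2 scale, turned to -0.020 with upper-quartile normalization and to -0.00199 with at least 10 counts in every library, and ran from -0.15 to 0.15 when single libraries were left out. With no filter on low counts, 1 of the 6 genes was called, Sod2 at a log2 fold change of -2.11, where 5.24% of 18770 genes were called. With both thresholds, the fits without a library called 0.0528% to 15.7% of genes tested, the highest share coming without Dusp6-deficient replicate 1. Regardless of fold change, these fits put 0 to 1 of the 6 genes under an adjusted p of 0.05, the 1 being Gclm. The fit with no filter put 1 there, Sod2. The cause was not tested.

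Over all genes, 442 were called higher and 275 lower. DESeq2 called 642 higher and 657 lower, and the fit with no filter 561 higher and 422 lower. With no fold change threshold, 708 genes were higher and 341 lower. Without one library, 1 to 1083 genes were higher and 5 to 968 lower, the highest values coming without Dusp6-deficient replicate 1.

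With the replicate block, edgeR called 298 genes higher and 188 lower, 3.81% of genes tested, and none of the 6 genes (0). Its log2 fold change for Sod2 was -1.40. After subtraction of each genotype's mean, libraries with equal numbers correlated across genes at 0.11, -0.12 and -0.14, and not every library matched its own number best, so the numbers were not taken as pairs.

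The setting for the pathway lists was not run. Gclm and Nqo1 had 164 to 534 counts per library, the fewest of the 6 genes, and their counting error was the largest.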
